A study of Mus musculus with 2 samples.

Results

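The genes described here are 41 genes of the NRF2 antioxidant response and of antioxidant defence, taken by symbol from the gene table of 2 single-cell RNA sequencing (scRNA-seq) libraries of mouse lung. The list holds the transcription factor gene *Nfe2l2* (which encodes NRF2) and its inhibitor *Keap1*, together with genes for glutathione, thioredoxin, NADPH, ferritin, peroxidases, superoxide dismutases, glutathione transferases and metallothioneins. All 41 symbols were among the 27998 genes in the files, and each had at least 1 unique molecular identifier (UMI, a tag that marks 1 captured RNA molecule) in both libraries. The rule that chose them used their names only, but the list was made with earlier results of these data known.

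The study modelled bronchopulmonary dysplasia, a lung disease of preterm infants, by keeping newborn C57BL/6 mice in hyperoxia (80% O2) from birth (P0) to postnatal day 14, with mice in room air (21% O2) as controls. Lungs were taken at 2 weeks of age, the lungs of 8 mice were pooled for each condition, and 1 library was made from each pool. With 1 library per group there is no replicate, so no p-value or standard deviation can be given, and the 95% intervals below are exact Poisson intervals that cover counting error only. A difference between the libraries can therefore be a difference between the conditions, the pools or the preparations, which cannot be told apart.

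In all, 39593888 UMIs were counted over 4234 barcodes in room air and 111934936 over 13223 in hyperoxia, with medians of 7306.5 and 6643 UMIs. Nonclassical monocyte-like cells had more UMIs in room air, and the other compared types more in hyperoxia, by a small margin in classical monocyte-like cells. After filters on genes, mitochondrial share and doublets, 3680 and 10472 cells remained, and 13 of the 3680 room air barcodes were also present among the kept hyperoxia barcodes. Cells were clustered without the 41 genes and named from marker genes as "X-like", and 16 cell types with at least 50 cells in each library were compared. Levels are given as CPM, the UMIs of a gene summed over the cells of a type, per 1000000 UMIs of that type in that library, and where 2 CPM values stand side by side the first is room air and the second hyperoxia. A gene counts as measured in a type where its CPM averaged over both libraries is at least 10, and as higher or lower in hyperoxia where the ratio passes 1.5-fold. Of the 41 genes, 39 were measured in at least 1 compared type. *Nqo1* and *Gsta1* were not.

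NRF2 is held in the cytoplasm and marked for degradation by KEAP1, whose reactive cysteines sense oxidants and electrophiles. When KEAP1 is modified, NRF2 accumulates, enters the nucleus with a small MAF partner and binds the antioxidant response element in front of genes for glutathione synthesis, thioredoxin recycling, quinone reduction, NADPH supply and iron storage. In the lung this response is best known as a protection of the alveolar epithelium against high oxygen, and mice without NRF2 are more sensitive to hyperoxia. Metallothioneins, small cysteine-rich proteins that bind zinc and copper, are switched on mainly by another factor, MTF1, through metal response elements.

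To show which of the 41 genes carry these elements next to their start, the 250 bases before each RefSeq gene start (GRCm38.p6) were searched on both strands for the core of the antioxidant response element, TGACNNNGC. Promoter entries were matched for 35 of the 41 genes, and *Sod3*, *Gsr*, *Hmox1*, *Gsta4*, *Gclc* and *Prdx6* had no entry. A core was found for 9 of these 35 genes (25.7%), against 3112 of all 27025 genes with an entry (11.5%). The core with 10 bases on each side is printed for the 9 genes, with the core in capitals, 5′ to 3′ on the strand on which it reads TGACNNNGC. A match says only that these letters are present in this window.

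Gclm (chr3:122245413-122245441, minus strand): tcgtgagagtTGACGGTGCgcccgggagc
Txnrd1 (chr10:82859104-82859132, minus strand): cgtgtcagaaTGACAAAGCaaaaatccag
Prdx1 (chr4:116685456-116685484, minus strand): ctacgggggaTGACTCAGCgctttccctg
Sod1 (chr16:90220696-90220724, minus strand): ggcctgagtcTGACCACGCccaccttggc
G6pdx (chrX:74428919-74428947, plus strand): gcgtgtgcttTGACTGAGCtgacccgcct
Gsta3 (chr1:21240454-21240482, plus strand): aactcaggcaTGACATTGCatttttcttc
Mgst1 (chr6:138140461-138140489, minus strand): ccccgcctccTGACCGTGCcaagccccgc
Nfe2l2 (chr2:75704885-75704913, minus strand): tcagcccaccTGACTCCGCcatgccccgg
Mt2 (chr8:94172529-94172557, plus strand): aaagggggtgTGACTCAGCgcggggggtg

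The core lay nearest to the start in *Sod1* and *Mgst1*, 56 bases before it in each, and farthest in *Nfe2l2*, 240 bases before it. *Prdx1* and *Mt2* carried the same core letters, TGACTCAGC. *Txnrd1* had 3 RefSeq promoter entries with 1 core among them, and *Mgst1* had 2 entries with 1 core. The cores of *Txnrd1*, *Mgst1* and *G6pdx* lie inside the annotated span of their gene, not before it.

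For the metallothionein genes the same windows were searched for the core of the metal response element, TGCACNC or TGCGCNC on either strand. At least 1 core was present for 7 of the 35 genes and for 23.8% of all genes with an entry, and 395 of the 27025 genes (1.46%) held 3 or more. *Mt2* was among the latter with 3 cores, while *Mt1*, its neighbour on the same chromosome, held 1. These counts hold only for the window before 1 RefSeq start of each gene. Bases after that start were not searched, so the counts do not compare the whole promoters. Both are printed on the plus strand with the metal cores in capitals, and the antioxidant core of *Mt2* is left in lower case here because the capitals mark the metal cores only.

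Mt2 (chr8:94172368-94172617): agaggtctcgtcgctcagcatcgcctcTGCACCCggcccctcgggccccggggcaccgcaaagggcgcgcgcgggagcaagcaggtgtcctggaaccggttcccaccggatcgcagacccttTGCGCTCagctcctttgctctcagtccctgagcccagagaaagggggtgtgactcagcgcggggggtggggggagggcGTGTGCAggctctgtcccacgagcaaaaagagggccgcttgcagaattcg
Mt1 (chr8:94178839-94179081): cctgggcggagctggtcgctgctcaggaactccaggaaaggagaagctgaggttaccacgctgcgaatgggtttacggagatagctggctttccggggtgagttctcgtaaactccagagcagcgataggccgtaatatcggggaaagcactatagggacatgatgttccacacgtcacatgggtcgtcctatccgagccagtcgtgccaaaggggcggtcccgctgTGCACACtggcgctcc

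Across the 16 compared types, higher values in hyperoxia were more frequent among the 41 genes than lower ones. Of 656 pairs of a gene and a cell type, 477 were measured, of which 96 (20.1%) were at least 1.5-fold higher in hyperoxia and 24 (5.03%) at least 1.5-fold lower. Over all 122822 measured pairs of any gene and a type, the shares were 9.0% higher and 10.8% lower. A pair that reaches the mean of 10 CPM only through 1 library had to differ, which applied to 10 of the 96 higher and 4 of the 24 lower pairs (the other library under 10 CPM), so these counts are a description. The counting interval of the ratio excluded 0 on the log2 scale for 82 of the 96 and 19 of the 24. With a stricter minimum of 50 CPM, 14.6% of the members' pairs were higher and 3.87% lower, against 6.33% and 6.55% over all genes.

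**Figure D1:**
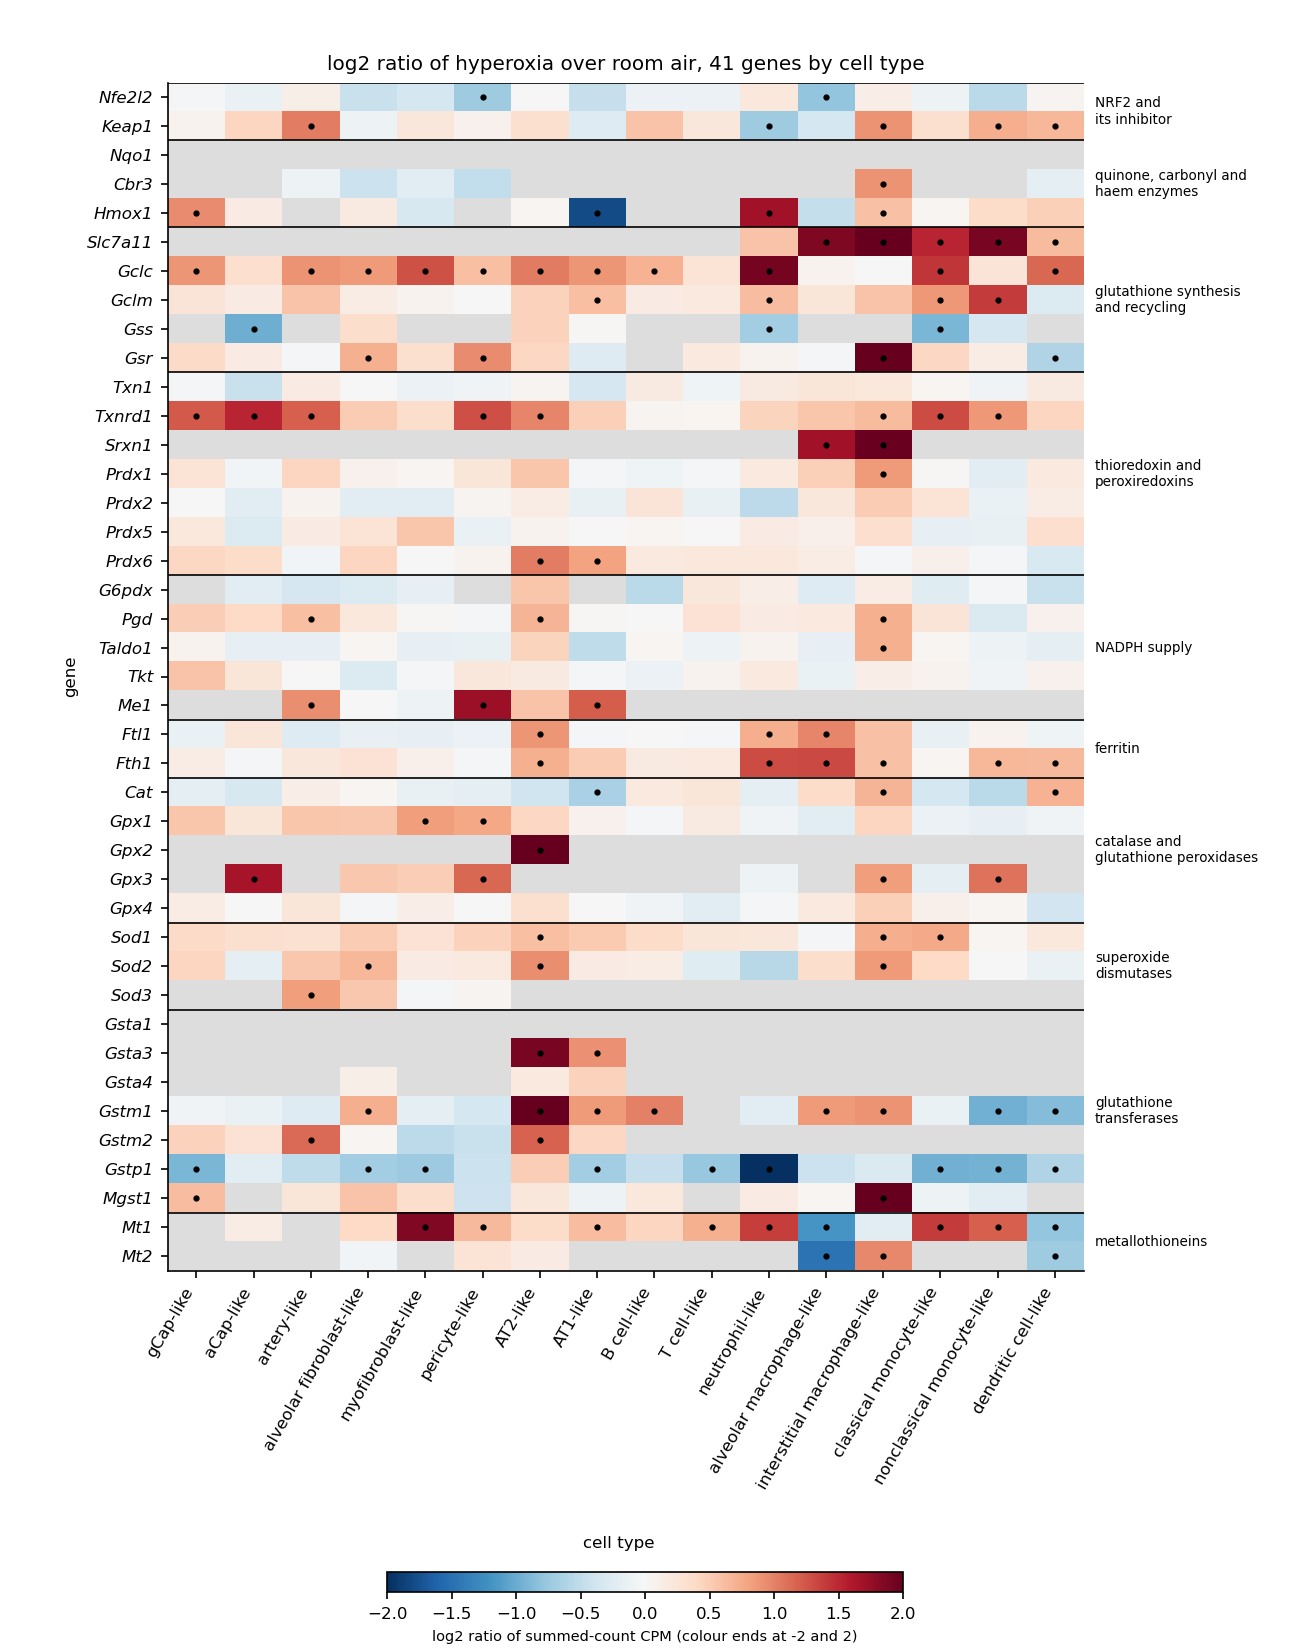
The heatmap shows hyperoxia relative to room air as a log2 ratio (colour, ending at −2 and 2) of the 41 genes (rows, by role) in the 16 compared cell types (columns), with grey for pairs under a mean of 10 CPM and dots for ratios past 1.5-fold. *Gclc* has 11 dots on the higher side, *Txnrd1* 8 and *Slc7a11* 5, and *Gstp1* has 9 on the lower side.

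The higher values were spread unevenly over the cell types. Interstitial macrophage-like cells had 18 of 32 measured genes higher and alveolar type II (AT2)-like cells 12 of 34, and neither had any gene lower. At the other end, T cell-like cells had 1 of 24 higher (4.17%, against 3.98% of all genes). Aerocyte capillary (aCap)-like cells had 2 of 29 (6.90%, against 8.57%), so both lay near the shares of all genes. In dendritic-like cells 5 of 29 genes were higher and 5 lower, against 11.5% and 10.4% of all genes.

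**Figure D2:**
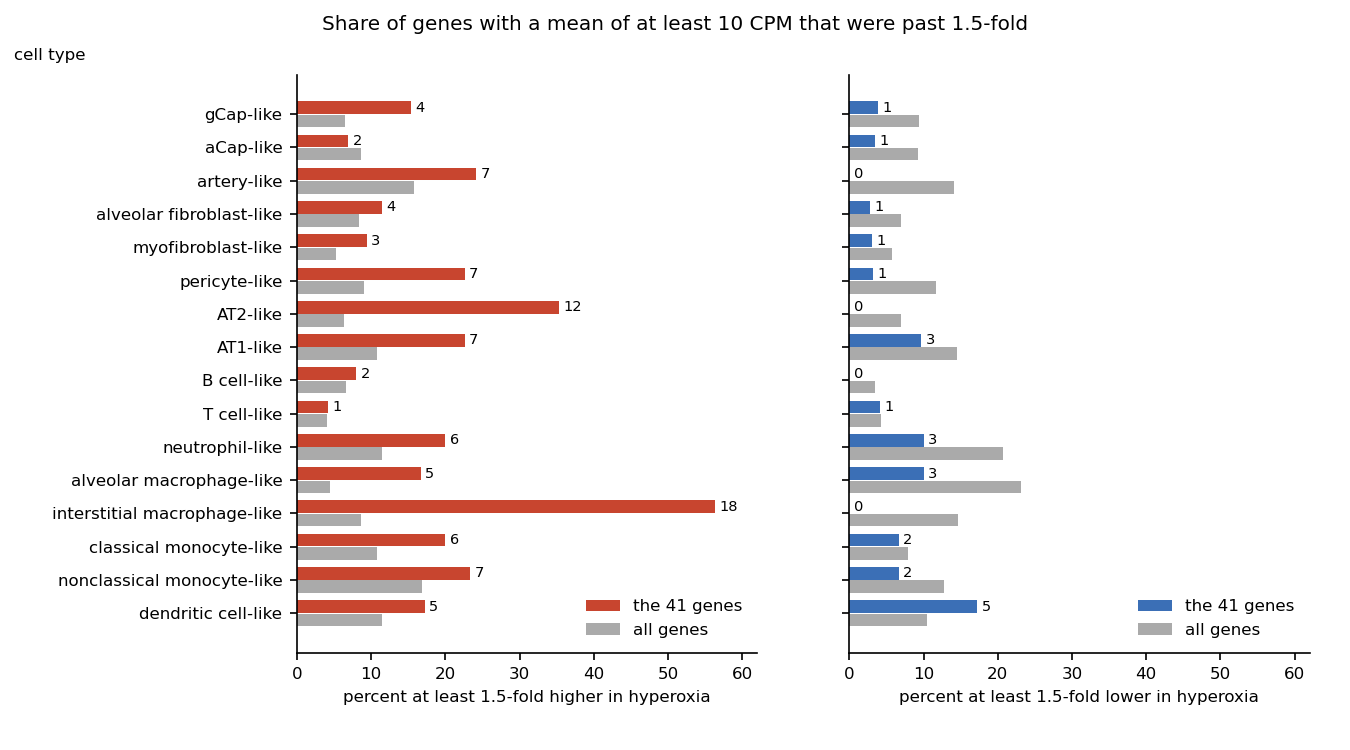
The percentage of measured genes at least 1.5-fold higher or lower in hyperoxia, for the 41 genes and for all genes, in each of the 16 compared cell types, each from 1 library per condition. In interstitial macrophage-like cells 56.2% of the members were higher against 8.64% of all genes, and in AT2-like cells 35.3% against 6.3%.

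The transcription factor itself was not higher in any type. *Nfe2l2* was measured in all 16 types with a median log2 ratio of -0.12 (range -0.80 to 0.21), and it passed 1.5-fold in 2 types, both lower. Its level in room air was highest in nonclassical monocyte-like cells (607 CPM, 95% interval 559 to 657, and 419 in hyperoxia), where the interval overlapped that of classical monocyte-like cells (574 CPM, 535 to 616), and lowest in T cell-like cells (68.4 CPM). NRF2 is controlled mainly through protein stability, which RNA counts do not measure. *Keap1* was measured in all 16 types, higher in 4 and lower in 1, with a median log2 ratio of 0.27. In room air the interval of the highest type also overlapped that of the next for *Keap1*, *Nqo1*, *Cbr3*, *Gclm*, *Txnrd1*, *Srxn1*, *Prdx2*, *G6pdx*, *Gpx2*, *Sod1*, *Sod2*, *Gsta3* and *Gstm1*, so their highest type is not set apart from the next. The type with the highest *Keap1* level, alveolar type I (AT1)-like cells, had 49.3 CPM in room air and 41.3 in hyperoxia.

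Among the enzymes that remove quinones, carbonyls and haem, few pairs were measured. *Nqo1*, a quinone reductase and a classical NRF2 target, had 86 UMIs over all room air cells and 300 over all hyperoxia cells, and its highest level among the compared types in room air, in alveolar fibroblast-like cells, was 8.86 CPM against 3.52 in hyperoxia. The carbonyl reductase gene *Cbr3* was highest in myofibroblast-like cells, with 30.9 CPM in room air and 26.3 in hyperoxia, and passed 1.5-fold in 1 of 6 types. *Hmox1*, which encodes the haem-degrading enzyme haem oxygenase 1, was measured in 12 types and was higher in 3 and lower in 1. Its level in room air was highest in alveolar macrophage-like cells, with 350.2 CPM in room air and 250.4 in hyperoxia. Of the 3 higher types, gCap-like and interstitial macrophage-like cells were not past 1.5-fold without the single cell that held most *Hmox1* UMIs.

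Genes of glutathione synthesis and recycling gave the most higher pairs of any role by number, with 23 of 60 measured pairs higher, 4 lower and a median log2 ratio of 0.40. Over all genes the shares were 9.0% higher and 10.8% lower. Metallothionein genes had 8 of 20 pairs higher and 4 lower. *Gclc*, the catalytic subunit of glutamate-cysteine ligase and the rate-limiting step of glutathione synthesis (chr9:77754535-77794485, plus strand, GRCm38), was higher in 11 of 16 types and had a ratio above 1 in 15. Its level was highest in AT2-like cells in room air, at 213 CPM (548 UMIs), with 439 CPM in hyperoxia (5477 UMIs), and the next type, B cell-like cells, held 50.6 CPM. AT2-like cells thus stood apart from every other compared type in *Gclc* level in both conditions.

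The remaining genes of this role varied more. *Gclm*, the modifier subunit of the same ligase, was above 1 in 15 of 16 types but past 1.5-fold in 4, and was highest in artery-like cells (103 CPM in room air and 152 in hyperoxia). *Slc7a11*, the transporter that brings in cystine for glutathione synthesis, was measured in 6 types, all of them myeloid, and was higher in 5. Neutrophil-like cells were the exception, with the highest level of any type (1085 CPM in room air and 1603 in hyperoxia) and a log2 ratio of 0.56, just under the threshold. In dendritic-like cells the direction turned when the mean over single cells was used (0.63 and -0.65). Without the single cell that held most *Slc7a11* UMIs there, the log2 ratio was 0.16, not past 1.5-fold. *Gss*, glutathione synthetase, was higher in 0 of 7 types and lower in 3, and its highest level, in AT1-like cells, was alike in both libraries (75.3 CPM in room air and 76.8 in hyperoxia). *Gsr*, which reduces oxidised glutathione, was higher in 3 and lower in 1 of 15 types, and was highest in neutrophil-like cells (1337 CPM in room air and 1398 in hyperoxia).

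**Figure D3:**
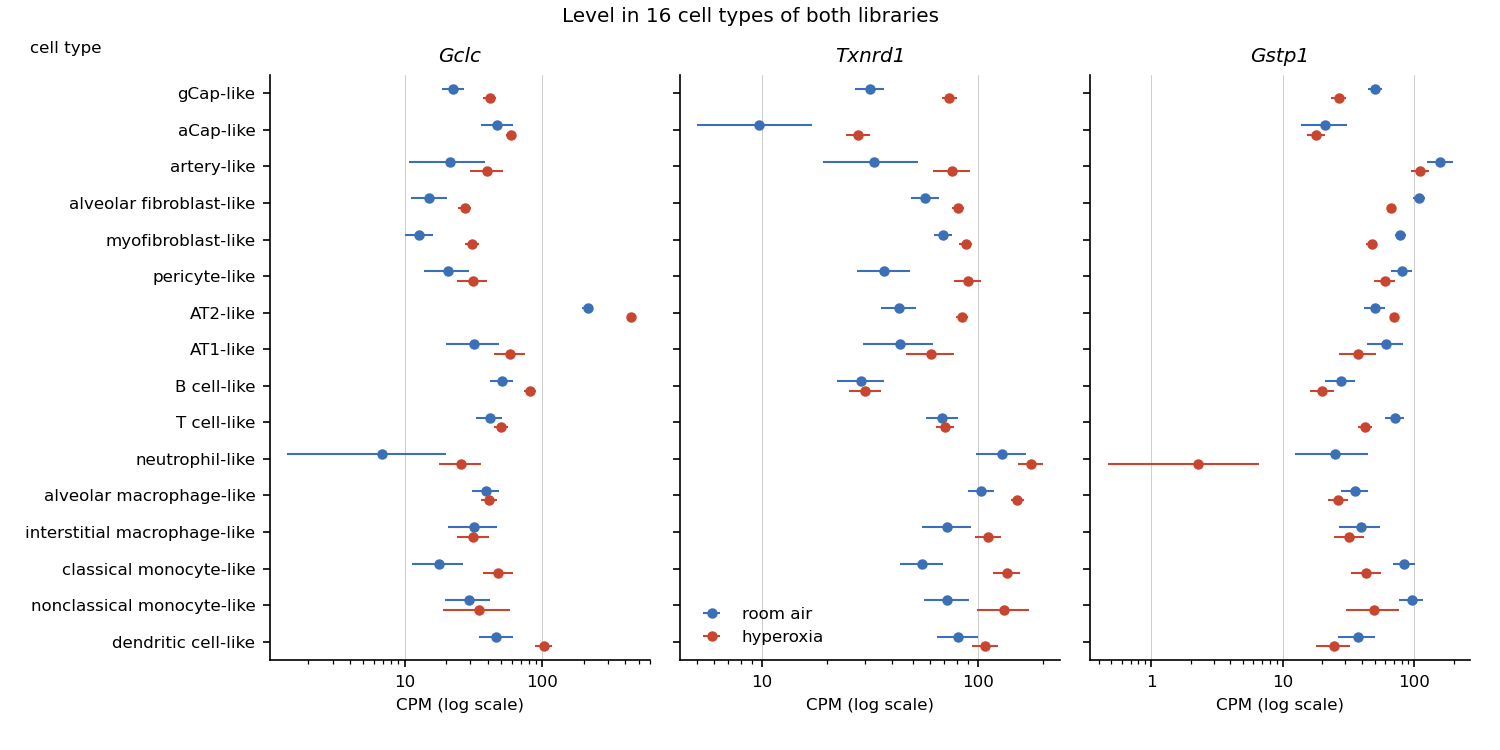
Levels of *Gclc*, *Txnrd1* and *Gstp1* in CPM (log axis) in the room air and hyperoxia libraries across the 16 compared cell types, with exact 95% Poisson intervals that cover counting error only. *Gclc* was higher in 11 types and *Txnrd1* in 8, and *Gstp1* was lower in 9.

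In the thioredoxin system, the reductase stood apart from its substrate. *Txnrd1*, thioredoxin reductase 1 (chr10:82833951-82897712, plus strand), had a ratio above 1 in all 16 types and passed 1.5-fold in 8, with log2 ratios from 0.04 to 1.52. Its highest level in room air was in neutrophil-like cells (129 CPM in room air and 175 in hyperoxia). *Txn1*, thioredoxin, passed the threshold in none of 16 types and had a median log2 ratio of 0.02. Neutrophil-like cells had 1427 CPM in room air and 1619 in hyperoxia. *Srxn1*, which repairs overoxidised peroxiredoxins, was measured only in the macrophage-like types, alveolar and interstitial. In both it reached the mean of 10 CPM only through the hyperoxia library and so had to be higher there. Its highest room air level, in alveolar fibroblast-like cells, was 12.5 CPM against 7.21 in hyperoxia.

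The peroxiredoxins, which break down peroxides, mostly stayed between the thresholds. *Prdx2* and *Prdx5* passed in none of 16 types. *Prdx2* was highest in alveolar fibroblast-like cells (451 CPM in room air and 388 in hyperoxia) and *Prdx5* in classical monocyte-like cells (1818 CPM in room air and 1614 in hyperoxia). *Prdx1* passed in 1 type and was highest in alveolar macrophage-like cells (1279.7 CPM in room air and 1779 in hyperoxia). *Prdx6*, which also acts on oxidised phospholipids and takes part in surfactant turnover, was higher in both alveolar epithelial types and in no other, and AT1-like cells held 1694 CPM in room air and 2966 in hyperoxia.

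Of the genes that supply NADPH, the reducing agent for both systems, 7 of 67 measured pairs were higher and none lower, a share of higher pairs near the 9.0% of all genes. *Me1*, malic enzyme, accounted for 3 of these among its 6 types, and its highest level was in AT2-like cells (183 CPM in room air and 271 in hyperoxia). In the pentose phosphate pathway, *Pgd* was higher in 3 of 16 types and *Taldo1* in 1, while *G6pdx* (13 types) and *Tkt* (16 types) passed in none. *G6pdx* was highest in classical monocyte-like cells (99.5 CPM in room air and 84.2 in hyperoxia), and *Tkt* in nonclassical monocyte-like cells (545 CPM in room air and 519 in hyperoxia). Neutrophil-like cells held the highest *Pgd* level, with 299.6 CPM in room air and 337 in hyperoxia, and also the highest *Taldo1* level, with 1343 CPM in room air and 1411 in hyperoxia.

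Ferritin stores iron and so limits its reaction with peroxide. *Fth1*, the heavy chain, was higher in 6 of 16 types, and *Ftl1*, the light chain, in 3, with none lower. Both were highest in alveolar macrophage-like cells, where *Fth1* was 12419 CPM in room air and 30934 in hyperoxia and *Ftl1* 8771 CPM in room air and 17243 in hyperoxia. The median log2 ratio over types was 0.26 for *Fth1* and -0.02 for *Ftl1*, so the higher *Ftl1* values belonged to few types.

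The peroxide-removing enzymes differed by gene. *Cat*, catalase, was higher in 2 and lower in 1 of 16 types, with ratios below 1 in 9, and was highest in AT2-like cells (466 CPM in room air and 353 in hyperoxia). *Gpx1* was higher in 2 of 16 types and highest in nonclassical monocyte-like cells (2243 CPM in room air and 2008 in hyperoxia). *Gpx4*, which reduces lipid peroxides in membranes, passed in none of 16 and was highest in AT1-like cells (1081 CPM in room air and 1072 in hyperoxia). *Gpx3*, a secreted form, was higher in 4 of 8 types and highest in alveolar fibroblast-like cells (473 CPM in room air and 691 in hyperoxia). Of the 4, nonclassical monocyte-like cells held 7.02 CPM in room air. They reached the mean of 10 only through hyperoxia and so had to be higher. *Gpx2*, an epithelial form, was measured only in AT2-like cells, where its values are given.

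Superoxide dismutases convert superoxide to hydrogen peroxide. *Sod1*, the cytoplasmic form, had a ratio above 1 in 15 of 16 types and passed in 3, with its highest level in artery-like cells (253 CPM in room air and 314 in hyperoxia). *Sod2*, the mitochondrial form, was higher in 3 of 16 types and highest in AT1-like cells (145 CPM in room air and 162 in hyperoxia). *Sod3*, the extracellular form, was higher in 1 of 4 types and highest in alveolar fibroblast-like cells (293 CPM in room air and 425 in hyperoxia). The higher type, artery-like cells, held 9.72 CPM in room air and reached the mean of 10 only through hyperoxia.

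Glutathione transferases, which couple glutathione to electrophiles, went both ways, with 12 of 57 measured pairs higher and 11 lower. The shares over all genes were 9.0% and 10.8%. *Gstp1* (chr19:4035407-4037985, minus strand) accounted for 9 of the 11 lower pairs, with ratios below 1 in 15 of 16 types, a median log2 ratio of -0.65 and its highest level in artery-like cells (158 CPM in room air and 111 in hyperoxia). AT2-like cells alone had a ratio above 1, with 50.1 CPM in room air and 70.7 in hyperoxia. *Gstm1* was higher in 6 and lower in 2 of 15 types and was highest in aCap-like cells (270.2 CPM in room air and 246 in hyperoxia), while *Gstm2* was higher in 2 of 8 and highest in alveolar fibroblast-like cells (208 CPM in room air and 214 in hyperoxia). *Gsta3* was measured in the alveolar epithelial types only and was higher in both, under 10 CPM in room air in AT1-like cells. *Gsta4* passed in none of 3 types (AT2-like cells 81.9 CPM in room air and 93.5 in hyperoxia), and *Gsta1* had 16 UMIs over all room air cells and 17 over all hyperoxia cells. *Mgst1*, a membrane-bound form, was higher in 2 of 13 types and highest in classical monocyte-like cells (670.1 CPM in room air and 623 in hyperoxia). Several of these genes have near-identical copies, such as *Gstp2* for *Gstp1*, and reads shared between copies may have been lost in counting, so their levels are uncertain.

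Metallothionein genes also went both ways. *Mt1* was higher in 7 and lower in 2 of 14 types, and *Mt2* higher in 1 and lower in 2 of 6. Alveolar macrophage-like cells held the highest level of each in room air and were lower in hyperoxia for both (*Mt1* 1921 and 850.1 CPM, *Mt2* 513 and 185 CPM).

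AT2-like cells (194 cells in room air and 1055 in hyperoxia), the surfactant-producing cells of the alveolus, had 12 of 34 measured genes higher and none lower, against 6.3% and 7.01% of all genes. Ratios were above 1 for 32 of the 34, and the median log2 ratio was 0.46 against 0.03 over all genes. The largest ratio was that of *Gpx2*, with 2.33 CPM in room air (6 UMIs) and 21.3 in hyperoxia (265 UMIs, log2 ratio 3.19, 95% interval 2.05 to 4.65). *Gpx2* passed the mean of 10 CPM only through the hyperoxia library. Cells with a *Gpx2* UMI made up 2.58% of room air and 16.1% of hyperoxia AT2-like cells, beside 0.240% and 0.678% of B cell-like cells, a type that should lack it. The club cell transcript *Scgb1a1*, a gauge of free airway RNA, was 431 CPM in room air and 346 in hyperoxia in AT2-like cells. *Gpx2* itself was 187 CPM in room air and 346 in hyperoxia in club-like cells, and the part of free RNA in its ratio in AT2-like cells was not tested.

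Glutathione transferases followed *Gpx2* in size. *Gstm1* was 19 CPM in room air and 76.8 in hyperoxia (log2 ratio 2.01, 95% interval 1.60 to 2.46), and *Gsta3* 15.1 and 56.4 (log2 ratio 1.90, 95% interval 1.43 to 2.40). *Gstm2* was 16.3 CPM in room air and 36.8 in hyperoxia. These 3 genes were low in room air AT2-like cells, under 20 CPM each. In both conditions *Gsta3* was higher in club-like than in AT2-like cells. The part of free RNA in its ratios in AT2-like and AT1-like cells was not tested.

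*Gclc* had a log2 ratio of 1.05 (95% interval 0.92 to 1.18) and *Txnrd1* was 43.1 CPM in room air and 84.4 in hyperoxia (log2 ratio 0.97, 95% interval 0.69 to 1.27). *Prdx6* was 236 CPM in room air and 481 in hyperoxia (log2 ratio 1.03, 95% interval 0.91 to 1.15), and *Sod2* 102 CPM in room air and 195 in hyperoxia (log2 ratio 0.93, 95% interval 0.75 to 1.12). Ferritin followed, with *Ftl1* 1625 and 2994 CPM and *Fth1* 1748 and 2867 CPM, and *Pgd* and *Sod1* were just past the threshold (log2 ratios 0.67 and 0.59). The smallest ratios were those of *Cat* (-0.40, 95% interval -0.49 to -0.31), *Nfe2l2* (192 CPM in room air and 191 in hyperoxia) and *Hmox1* (35.7 CPM in room air and 36.8 in hyperoxia). All 8 AT2 markers were lower in hyperoxia in AT2-like cells, their sum 242572 CPM in room air and 200642 in hyperoxia, and the part of this in the members' ratios was not tested.

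**Figure D4:**
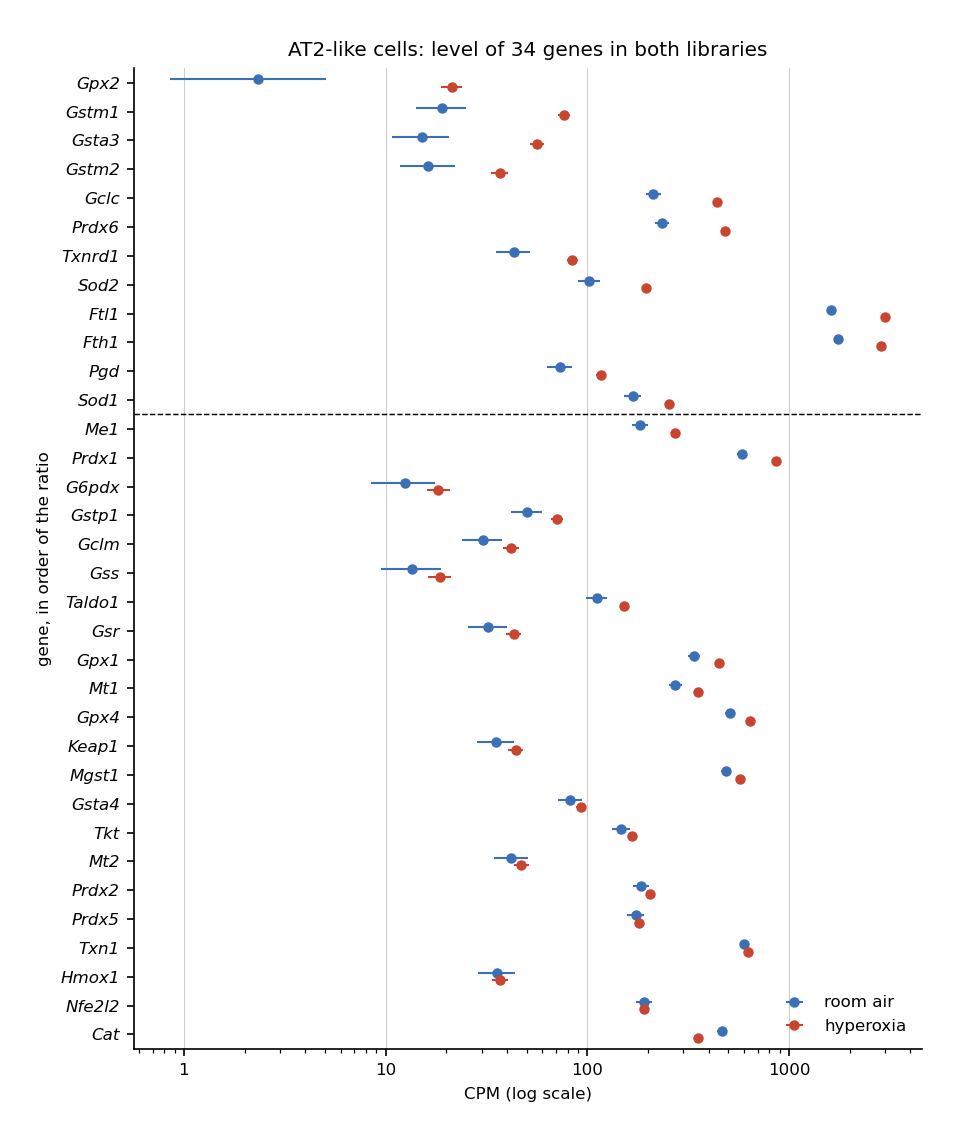
Levels in CPM (log axis) of the 34 measured genes in AT2-like cells in the room air and hyperoxia libraries, with exact 95% Poisson intervals, ordered by ratio. The 12 genes above the dashed line, from *Gpx2* to *Sod1*, were at least 1.5-fold higher in hyperoxia, and no gene was 1.5-fold lower.

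AT1-like cells (66 cells in room air and 126 in hyperoxia), the thin cells of gas exchange, had 7 of 31 genes higher and 3 lower, against 10.8% and 14.5% of all genes. *Me1* was 40.6 CPM in room air and 94.1 in hyperoxia (log2 ratio 1.21, 95% interval 0.60 to 1.88), *Gsta3* 8.69 CPM in room air and 16.3 in hyperoxia on 6 and 17 UMIs, and *Gclc* 31.9 CPM in room air and 58.6 in hyperoxia. The lowest were *Hmox1* (23.2 and 6.72 CPM, on 16 and 7 UMIs), *Gstp1* (60.9 and 37.5 CPM) and *Cat* (174 and 110.4 CPM). *Gsta3* reached the mean of 10 CPM only through hyperoxia and *Hmox1* only through room air. AT2 markers in these cells summed to 41783 CPM in room air and 18498 in hyperoxia, 17.2% and 9.22% of the level in AT2-like cells, with all 8 lower. Their part in the ratios was not tested, and none of the 10 genes past 1.5-fold stayed past it under every alternative processing. *Gsta3*, *Gstm1* and *Mt1* turned to lower when each library was clustered on its own, which gave 3 genes higher and 10 lower in all, against 10 and 0 with no doublets removed.

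Interstitial macrophage-like cells (67 cells in room air and 176 in hyperoxia), the macrophages of the lung tissue rather than the airspace, had the highest count, 18 of 32 genes higher and none lower, against 8.64% and 14.7% of all genes. The median log2 ratio was 0.61 for the members and -0.07 for all genes. *Mgst1* was 17.1 CPM in room air (14 UMIs) and 84.9 in hyperoxia (159 UMIs, log2 ratio 2.31, 95% interval 1.52 to 3.21). *Gsr* was 14.7 CPM in room air and 64.1 in hyperoxia (log2 ratio 2.13, 95% interval 1.27 to 3.12), and *Slc7a11* 26.9 CPM in room air and 107 in hyperoxia (log2 ratio 1.99, 95% interval 1.35 to 2.69). A membrane-bound transferase, glutathione reductase and the cystine transporter thus had the largest ratios in this type.

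*Srxn1* was 4.90 CPM in room air and 19.2 in hyperoxia on 4 and 36 UMIs. *Prdx1* was the most abundant peroxiredoxin gene to pass the threshold (457 CPM in room air and 819.6 in hyperoxia, log2 ratio 0.84, 95% interval 0.68 to 1.01). The others that passed were *Mt2*, *Keap1*, *Cbr3*, *Gstm1*, *Sod2*, *Gpx3*, *Sod1*, *Taldo1*, *Pgd*, *Cat*, *Txnrd1*, *Hmox1* and *Fth1*, with log2 ratios from 0.59 to 0.96. Of these *Gpx3* turned to -0.21 as a mean over single cells, and *Cbr3* reached the mean of 10 CPM only through hyperoxia. At the low end were *Gstp1* (39.2 CPM in room air and 32 in hyperoxia), *Mt1* (539 CPM in room air and 466 in hyperoxia) and *Prdx6* (137 CPM in room air and 133 in hyperoxia).

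The values rest on 67 and 176 cells, and some genes on few of them. In hyperoxia 49 of 176 cells had a *Slc7a11* UMI, with up to 29 in a single cell, and 48 had a *Gsr* UMI. The markers of the type itself summed to 32544 CPM in room air and 34319 in hyperoxia. Classical monocyte markers were 1062 and 1459 CPM, alveolar macrophage markers 1690.3 and 1591, and *Lyz2* was 3860.4 CPM in room air and 8586 in hyperoxia. The neutrophil gene *S100a8* was 11 CPM in room air and 22.4 in hyperoxia, against 53543 and 39987 in neutrophil-like cells. The part of these in the ratios was not tested, and 8 of the 18 genes stayed past 1.5-fold under every alternative processing.

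Alveolar macrophage-like cells (147 cells in room air and 303 in hyperoxia) had 5 of 30 genes higher and 3 lower, against 4.43% and 23.2% of all genes, and the median over all genes was itself -0.25 on the log2 scale. Relative to that shift, as given by trimmed mean scaling, the log2 ratios were 2.17 for *Slc7a11*, 1.98 for *Srxn1*, 1.62 for *Fth1*, 1.28 for *Ftl1* and 1.16 for *Gstm1*. Without it, *Slc7a11* was 45.5 CPM in room air and 167 in hyperoxia (log2 ratio 1.87, 95% interval 1.56 to 2.20) and *Srxn1* 5.94 CPM in room air and 19 in hyperoxia (log2 ratio 1.68, 95% interval 0.81 to 2.68). *Fth1* (1.32, 95% interval 1.30 to 1.34) and *Ftl1* (0.98) had the narrowest intervals, having the highest counts.

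The lower genes were *Mt2* (-1.47, 95% interval -1.60 to -1.34), *Mt1* (-1.18, -1.24 to -1.11) and *Nfe2l2* (204 and 117 CPM, -0.80). Under trimmed mean scaling *Nfe2l2* was -0.50 and no longer past 1.5-fold, and *Mt1* and *Mt2* were -0.88 and -1.17. The alveolar macrophage markers summed to 16021 CPM in room air and 11027 in hyperoxia, with *Chil3* at 9480.0 and 4275. Their part in the ratios was not tested.

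**Figure D5:**
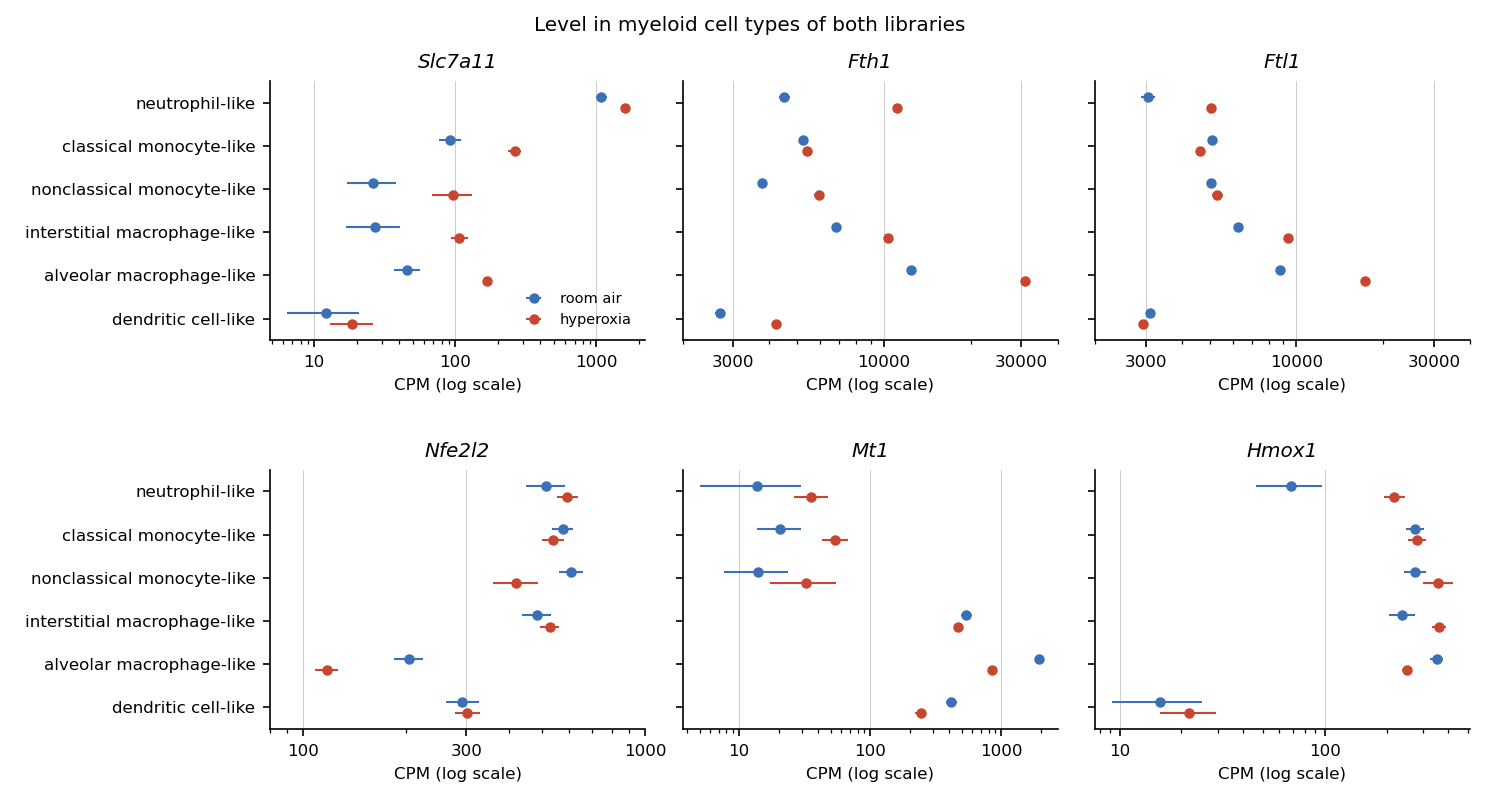
Levels of *Slc7a11*, *Fth1*, *Ftl1*, *Nfe2l2*, *Mt1* and *Hmox1* in CPM (log axis) in the 6 myeloid cell types of the room air and hyperoxia libraries, with exact 95% Poisson intervals. *Slc7a11* was higher in hyperoxia in all 6 types, past 1.5-fold in 5, whereas *Mt1* was lower in alveolar macrophage-like and dendritic-like cells. In dendritic-like cells *Slc7a11* was not past 1.5-fold without the single cell that held most of its UMIs.

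Neutrophil-like cells (109 cells in room air and 487 in hyperoxia) had 6 of 30 genes higher and 3 lower, against 11.5% and 20.6% of all genes. *Gclc* was 6.81 CPM in room air and 25.7 in hyperoxia on 3 and 34 UMIs (log2 ratio 1.92, 95% interval 0.25 to 4.26), *Hmox1* 68.1 CPM in room air and 218 in hyperoxia (log2 ratio 1.68, 95% interval 1.14 to 2.27) and *Mt1* 13.6 CPM in room air and 35.5 in hyperoxia. Ferritin was higher at far larger counts, with *Fth1* 4505 and 11128 CPM (log2 ratio 1.30, 95% interval 1.24 to 1.37) and *Ftl1* 3059 and 5053 CPM. *Gstp1* had 11 UMIs in room air and 3 in hyperoxia (25 and 2.27 CPM, log2 ratio -3.46, 95% interval -5.94 to -1.54), and *Keap1* (13.6 and 8.31 CPM) and *Gss* (15.9 and 9.82 CPM) were also lower. Of these 9 genes *Gclc*, *Fth1* and *Gstp1* stayed past 1.5-fold under every alternative. *Gclc* reached the mean of 10 CPM only through hyperoxia, and *Gstp1*, *Keap1* and *Gss* only through room air, so they had to differ. For *Gclc* and *Gstp1*, staying past the threshold is therefore no further support. The counts were 3 higher and 4 lower under the stricter cell filter and 5 and 6 at resolution 0.5.

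Both monocyte types had *Slc7a11* as their largest ratio. In classical monocyte-like cells (138 cells in room air and 181 in hyperoxia) 6 of 30 genes were higher and 2 lower, against 10.7% and 7.89% of all genes, with *Slc7a11* 91.4 and 263 CPM (log2 ratio 1.52, 95% interval 1.23 to 1.83), *Gclc* 17.7 and 47.6 CPM and *Mt1* 20.6 and 54.2 CPM. *Gstp1* (84 and 43.2 CPM), *Gss* (20.6 and 11 CPM) and *Cat* (53.1 and 41.8 CPM) had the smallest ratios there. In nonclassical monocyte-like cells (223 cells in room air and 118 in hyperoxia) 7 of 30 were higher and 2 lower, against 16.9% and 12.8%, a wide background. *Slc7a11* was 26.1 and 96.8 CPM (log2 ratio 1.89, 95% interval 1.14 to 2.67), *Gclm* 15 and 39.7 CPM and *Mt1* 14 and 32.3 CPM, and the lowest were *Gstm1* (58.2 and 29.8 CPM), *Gstp1* (95.3 and 49.6 CPM) and *Cat* (65.2 and 44.7 CPM).

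Dendritic-like cells (78 cells in room air and 194 in hyperoxia) had 5 of 29 genes higher and 5 lower, against 11.5% and 10.4% of all genes. Without the top cell of each gene, 4 were higher and 1 lower. *Gclc* (46.4 and 102 CPM, log2 ratio 1.14, 95% interval 0.69 to 1.62), *Cat* (52.9 and 85.8 CPM) and *Keap1* (26 and 41 CPM) were the highest. A single hyperoxia cell held 57 *Gclc* UMIs. Without it the level was 72.0 CPM in hyperoxia (log2 ratio 0.63), below the printed interval. The lowest were *Gstm1* (21.3 and 11.7 CPM), *Mt1* (415 and 242 CPM) and *Mt2* (81.7 and 50.1 CPM). B cell markers in these cells summed to 23.2 CPM in room air and 241 in hyperoxia, their part was not tested, and 1 of the 10 genes stayed past 1.5-fold under every alternative. *Gstm1* turned to 0.39 on the log2 scale with no doublets removed.

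The endothelial types differed in how many genes passed, with *Txnrd1* near the top of each. General capillary (gCap)-like cells (753 cells in room air and 1101 in hyperoxia) had 4 of 26 genes higher and 1 lower, against 6.45% and 9.38% of all genes. *Txnrd1* was 31.6 and 73.7 CPM (log2 ratio 1.22, 95% interval 0.98 to 1.47), *Gclc* 22.5 and 41.6 CPM and *Hmox1* 20.8 and 40.2 CPM. A single hyperoxia cell held 149 of the 330 *Hmox1* UMIs, and without it the level was 22.05 CPM in hyperoxia (log2 ratio 0.08). *Mgst1* also fell short of 1.5-fold without its top cell, which left 2 genes higher. Its room air level was 9.87 CPM, so it reached the mean of 10 only through hyperoxia. *Gstp1* was lower (50.4 and 26.6 CPM, log2 ratio -0.92, 95% interval -1.18 to -0.66), and *Cat* (53 and 46.1 CPM) and *Ftl1* (1492 and 1361 CPM) came next without passing.

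In aCap-like cells (152 cells in room air and 1116 in hyperoxia), the specialised capillary cells of gas exchange, 2 of 29 genes were higher and 1 lower, against 8.57% and 9.25% of all genes. *Gpx3* was 21.9 and 68.4 CPM (log2 ratio 1.64, 95% interval 1.09 to 2.26), *Txnrd1* 9.74 and 27.9 CPM on 12 and 228 UMIs, and *Keap1* 35.7 and 48.3 CPM. *Txnrd1* reached the mean of 10 CPM only through hyperoxia there. *Gss* was lower (22.7 and 11.5 CPM), with *Txn1* (699 and 512 CPM) and *Cat* (51.1 and 41.1 CPM) following. All 8 aCap markers were lower in hyperoxia in these cells (summed 12468 and 7607 CPM), gCap markers summed to 1810.4 and 2777 CPM, and their part in the ratios was not tested. Artery-like cells (54 cells in room air and 136 in hyperoxia) had 7 of 29 higher and none lower, against 15.8% and 14.1%, so their share lies nearer to a wide background. *Txnrd1* (33.1 and 75.9 CPM), *Gstm2* (31.1 and 67.9 CPM) and *Keap1* (29.2 and 59.3 CPM) were the highest, and *Gstp1* (log2 ratio -0.51), *G6pdx* (15.6 and 12.3 CPM) and *Gstm1* (163 and 137 CPM) the lowest.

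Among stromal cells, *Gclc* passed 1.5-fold in all 3 compared types, though in pericyte-like cells its log2 ratio was 0.54 without the cell that held most of its UMIs. Alveolar fibroblast-like cells (213 cells in room air and 1150 in hyperoxia) had 4 of 35 genes higher and 1 lower, against 8.37% and 6.97% of all genes. *Gclc* (15.1 and 27.3 CPM, log2 ratio 0.85, 95% interval 0.41 to 1.33), *Gstm1* (96.8 and 161 CPM) and *Gsr* (10.5 and 17.2 CPM, which turned to -0.21 on the log2 scale as a mean over single cells) were the highest and *Gstp1* (109 and 67 CPM), *Nfe2l2* (123 and 90.5 CPM) and *Cbr3* (27.9 and 20.8 CPM) the lowest. Myofibroblast-like cells (424 cells in room air and 762 in hyperoxia) had 3 of 32 higher and 1 lower, against 5.29% and 5.69%. *Mt1* was 23.2 and 83.7 CPM (log2 ratio 1.85, 95% interval 1.59 to 2.12), *Gclc* 12.8 and 31.1 CPM and *Gpx1* 256 and 456 CPM, and *Gstp1* (78.5 and 47.4 CPM), *Gstm2* (67 and 46.6 CPM) and *Nfe2l2* (86.8 and 67.9 CPM) were the lowest. Pericyte markers in these cells summed to 681 and 1696 CPM and smooth muscle markers to 3959 and 6600.2 CPM, and their part was not tested.

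Pericyte-like cells (137 cells in room air and 244 in hyperoxia), which wrap the capillaries, had 7 of 31 genes higher and 1 lower, against 8.99% and 11.7% of all genes. *Me1* was 11.4 and 37.4 CPM on 16 and 79 UMIs, *Txnrd1* 36.9 and 89.8 CPM (log2 ratio 1.28, 95% interval 0.83 to 1.76) and *Gpx3* 77.3 and 172 CPM. *Nfe2l2* was lower (109 and 66.7 CPM, log2 ratio -0.70, 95% interval -1.04 to -0.36), with *Cbr3* (29.8 and 21.3 CPM) and *Gstm2* (58.2 and 42.6 CPM) next. Pericyte markers summed to 12004 and 9770.1 CPM, smooth muscle markers to 3908 and 7552 CPM and alveolar fibroblast markers to 2842 and 1019 CPM with all 8 lower, and their part in the ratios was not tested.

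Lymphocytes showed the fewest genes past the threshold. B cell-like cells (417 cells in room air and 1328 in hyperoxia) had 2 of 25 higher and none lower, against 6.62% and 3.46% of all genes. *Gstm1* (10.6 and 21.4 CPM), *Gclc* (50.6 and 81.5 CPM) and *Keap1* (25.7 and 38.1 CPM) were the highest and *G6pdx* (16.4 and 11.3 CPM), *Gstp1* (27.5 and 20.03 CPM) and *Nfe2l2* (122 and 112 CPM) the lowest. T cell-like cells (266 cells in room air and 1114 in hyperoxia) had 1 of 24 higher and 1 lower, against 3.98% and 4.26%, shares near the background. *Mt1* (15.7 and 25.6 CPM, reversed at double the doublet rate), *Pgd* (34.7 and 42.5 CPM) and *Gclc* (87 and 313 UMIs, log2 ratio 0.28) were the highest, and *Gstp1* (71.2 and 42 CPM), *Sod2* (72.2 and 60.9 CPM) and *Gpx4* (229 and 198 CPM) the lowest.

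Other genes of the same pathways were counted from lists made by name, also with earlier results of these data known. Of 12 partners and regulators of NRF2, 21 of 184 measured pairs were higher (11.4%) and 6 lower (3.26%), against 9.0% and 10.8% over all genes. *Maff*, a small MAF protein that can pair with NRF2, accounted for 9 of the 21, with aCap-like cells 17.9 and 54.1 CPM. Of 72 further genes of NRF2 and redox defence, 70 were in the files, and 72 of 720 measured pairs were higher (10.0%) and 78 lower (10.8%), close to the shares over all genes. *Ephx1*, an epoxide hydrolase, was higher in 7 of 11 types, with alveolar fibroblast-like cells 12.5 and 74.7 CPM (log2 ratio 2.58, 95% interval 2.11 to 3.09), myofibroblast-like cells 29 and 158 CPM and AT2-like cells 20.2 and 79.9 CPM. *Txnip*, which binds and inhibits thioredoxin, was lower in 8 of 16 types and higher in 1, with alveolar macrophage-like cells 436 and 72.8 CPM and alveolar fibroblast-like cells, the exception, 258 and 490.5 CPM.

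Genes that cell dissociation is known to induce were also counted. Of 208 measured pairs of 13 such genes, 49 were higher in hyperoxia (23.6%) and 11 lower (5.29%), against 9.0% and 10.8% over all genes. *Fosb* was higher in 9 of 16 types and *Zfp36* in 7. In alveolar fibroblast-like cells 12 of the 13 were higher, in pericyte-like cells 9, and in AT2-like and interstitial macrophage-like cells 1 each. The 13 genes summed to 15607 CPM in room air and 16212 in hyperoxia in interstitial macrophage-like cells. In AT2-like cells the sums were 2049 and 2295 CPM. The part of dissociation in the members' ratios was not tested.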

How the data were processed

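Each library was made with the 10x Genomics 3′ kit from the pooled lungs of 8 mice. The deposited values are raw UMI counts per gene and barcode, made by the authors with Cell Ranger on mm10 (GRCm38). The submitters' processing notes name version 2.1.1, and other sources name other versions. The counts were not normalized.

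Barcodes with fewer than 500 genes or over 20% mitochondrial UMIs were removed (345 and 80 in room air, 1026 and 486 in hyperoxia). So were the cells ranked highest as doublets by simulated neighbours (129, 3.39%, and 1239, 10.6%). These shares were set in advance at 0.8% per 1000 barcodes, and the ranking only chose which cells were removed. Cells were clustered without the 41 genes (2000 variable genes, 30 components, Leiden resolution 1), giving 37 clusters, of which 1 stayed unnamed. The cell names were rebuilt from markers and may differ from those of the study. UMI counts were summed per type and library and scaled to CPM. Exact Poisson intervals of each CPM and exact conditional intervals of each ratio (95%) cover counting error only. They were tested on counts simulated as Poisson. That test cannot show how they cover UMIs that gather in single cells. No test was possible with 1 library per group. The members and gene lists were chosen with earlier results of these data known.

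Named genes were, by rule, each member in the type of its highest room air CPM, up to 3 largest and 3 smallest ratios per type, and genes past 1.5-fold one way in enough of their types (1 in 3 or more). Alternatives covered scaling, CPM minimum, cell filter, doublets and clustering. Software was Python 3.11.15, numpy 2.4.6, scipy 1.17.1, pandas 2.3.3, scikit-learn 1.9.0, igraph 0.11.9, leidenalg 0.10.2 and matplotlib 3.10.9.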

Additional observations from a re-analysis of the deposited data

How the results depend on the processing

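No paired analysis was possible because each condition had 1 library, and for the same reason no replicate could be left out. Of the 120 log2 ratios past 1.5-fold, 109 kept their direction and 67 stayed past 1.5-fold under every alternative that gave a value (11 of 12 in AT2-like, 7 of 8 in alveolar macrophage-like and 8 of 18 in interstitial macrophage-like cells). Over all types, 49 pairs were higher and 13 lower with a minimum of 50 CPM, and 155 and 41 with a minimum of 1 CPM. In alveolar macrophage-like cells 9 members were higher under trimmed mean scaling and 8 as a mean over single cells, and 6 were lower at double the doublet rate. In AT2-like cells 1 was lower as a mean over single cells. In interstitial macrophage-like cells 1 was lower when mitochondrial, haemoglobin and ribosomal protein genes were left out, with no doublets removed, at double the doublet rate and with each library clustered on its own, and 3 with a minimum of 1 CPM.

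Some log2 ratios reversed. As a mean over single cells, *Gsr* in alveolar fibroblast-like cells was -0.21, *Gpx3* in interstitial macrophage-like cells -0.21 and *Slc7a11* in dendritic-like cells -0.65. *Gsr* in pericyte-like cells was -0.041 at resolution 0.5 and at resolution 2, and -0.12 with each library clustered on its own. That clustering also gave -3.64 for *Gsta3*, -3.53 for *Gstm1* and -0.51 for *Mt1* in AT1-like cells. *Mt1* in T cell-like cells was -0.093 at double the doublet rate. *Gclm* in neutrophil-like cells was -0.39 under the stricter cell filter and -0.44 at resolution 2. In dendritic-like cells *Gsr* was 0.052 with no doublets removed, 0.97 at double the doublet rate, 0.19 at resolution 0.5 and 0.23 at resolution 2, and *Gstm1* was 0.39 and 0.50 under the first and second of these. The cause was not tested. AT1-like and dendritic-like cells under the stricter filter, artery-like cells at double the doublet rate, and artery-like and nonclassical monocyte-like cells at resolution 0.5 had under 50 cells in a library and gave no value. Both alternatives chosen after seeing the data reversed none of the 120: leaving out clusters of shallow cells, and leaving out the cell with most UMIs of a gene in the library where that gene was higher. The latter left 83 pairs higher and 17 lower, with 2 higher in gCap-like cells, 4 higher in AT1-like cells, 1 lower in neutrophil-like cells and 1 lower in dendritic-like cells. Depth limits the genes with few UMIs: 10 of the 96 higher and 4 of the 24 lower pairs had fewer than 10 UMIs in a library.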

Other observations

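Cell types with fewer than 50 cells in a library were not compared, and their values are given as a description. In club-like cells (9 and 43 cells), the secretory cells of the airway, *Gpx2* was 187 CPM in room air and 346 in hyperoxia, *Gsta3* 370.5 CPM in room air and 556 in hyperoxia and *Gclc* 79.6 CPM in room air and 234 in hyperoxia. *Nqo1*, under a mean of 10 CPM in every compared type, had 3 UMIs in room air and 33 in hyperoxia there (4.34 CPM in room air and 26.3 in hyperoxia, log2 ratio 2.60, 95% interval 0.93 to 4.95). In ciliated-like cells (21 and 43 cells) *Nqo1* was 7.93 CPM in room air and 35.4 in hyperoxia (log2 ratio 2.16, 95% interval 0.87 to 3.53), *Gclm* 102 CPM in room air and 371 in hyperoxia, *Gclc* 185 CPM in room air and 548 in hyperoxia, *Txnrd1* 122 CPM in room air and 336 in hyperoxia and *Cbr3* 38.8 CPM in room air and 165 in hyperoxia, while *Gsta3* was 335 CPM in room air and 172 in hyperoxia. The club cell gene *Scgb1a1* was 293881 CPM in room air and 78429.6 in hyperoxia in ciliated-like cells, and its part in these values was not tested. In adventitial fibroblast-like cells *Mt2* was 20.4 CPM in room air and 70.7 in hyperoxia, and in smooth muscle-like cells *Gstp1* was 102 CPM in room air and 51.1 in hyperoxia.

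Some genes outside the 41 passed 1.5-fold one way in 1 of 3 or more of the types in which they were measured. *Mgst3*, a microsomal transferase, was higher in 5 of 15 types (pericyte-like cells 139.8 and 275 CPM), and *Msra*, which repairs oxidised methionine, in 5 of 15 (dendritic-like cells 9.28 and 17.6 CPM). *Akr1b8*, an aldo-keto reductase, was higher in 2 of 4 types (AT2-like cells 8.54 and 32.7 CPM), *Osgin1* in 2 of 5 (classical monocyte-like cells 5.90 and 14.7 CPM) and *Gstm5* in 2 of 6 (artery-like cells 9.72 and 23.9 CPM). The transferase genes *Gstk1* and *Gstz1* were lower in 4 of 7 and 4 of 5 types (*Gstk1* in artery-like cells 17.5 and 4.34 CPM, *Gstz1* in pericyte-like cells 15.6 and 8.98 CPM). Among flavin monooxygenases, *Fmo1* was lower in 3 of 5 types (gCap-like cells 534 and 243 CPM), and *Fmo2* was higher in 4 and lower in 3 of 11 (AT2-like cells 15.5 and 47.3 CPM, pericyte-like cells 61 and 20.8 CPM). *Txnrd2*, the mitochondrial thioredoxin reductase, was lower in 2 of 5 types and higher in 1 (AT1-like cells 20.3 and 8.64 CPM, AT2-like cells 11.6 and 20.9 CPM).

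The rest were measured in few types or belong to other lists. *Aldh1a1* was 134 and 351 CPM in alveolar fibroblast-like and 22 and 10.4 CPM in pericyte-like cells, *Chac1* 21.4 and 4.34 CPM in artery-like cells, *Gstcd* 20.6 and 9.93 CPM in pericyte-like cells and *Tigar* 14.5 and 5.76 CPM in AT1-like cells. Of the subunits of NADPH oxidases, enzymes that produce superoxide, 4 of 70 measured pairs were higher (5.7%) and 8 lower (11.4%). Over all genes the shares were 9.0% and 10.8%. *Nox4* was 91.5 and 153 CPM in pericyte-like cells. Among genes of the metal response 6 of 40 were higher and 3 lower, with the zinc transporter gene *Slc39a14* 13.6 and 34.7 CPM in artery-like and 23.2 and 14 CPM in alveolar macrophage-like cells. Of the dissociation genes, *Fos* was higher in 6 of 16 types, with alveolar fibroblast-like cells 989.8 and 1906 CPM, *Fosb* was 87.2 and 258 CPM in nonclassical monocyte-like cells and *Zfp36* 139 and 408 CPM in pericyte-like cells.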
